A study of Mus musculus with 4 samples.

Results

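Autophagy encloses part of the cytoplasm in a double membrane, the autophagosome, which fuses with lysosomes, where the content is degraded. The kinase ULK1 starts the process, and BECN1 belongs to the lipid kinase complex that marks the membrane. ATG7, an E1-like enzyme, and ATG5, which is joined to ATG12, then attach small ubiquitin-like proteins of the ATG8 family (the LC3 and GABARAP proteins) to membrane lipid, and SQSTM1 (p62) ties cargo to them. Autophagy is largely regulated through these proteins rather than through their transcripts, so RNA levels do not measure the flow through the pathway.

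The core autophagy genes examined here were Sqstm1, Map1lc3a, Map1lc3b, Gabarap, Gabarapl1, Gabarapl2, Becn1, Ulk1, Atg5 and Atg7. They were found by gene symbol, and all 10 were present, each as 1 row of the 55487 genes counted. All 10 were among the 19384 genes tested, which had at least 10 counts summed over the libraries. RNA sequencing had been performed on wild-type mouse embryonic fibroblasts (MEFs), primary cells prepared from mid-gestation embryos and cultured in serum. Control MEFs were left untreated, and PEDF-treated MEFs received pigment epithelium-derived factor (PEDF, a secreted serpin, here purified from mammalian cells) at 100 ng/mL for 24 h. Experiments 1 and 2 each had 1 control and 1 PEDF library and used MEFs from different embryos, so the libraries of an experiment share a preparation, and the number of embryos is not given in the sources used here. The labels give the cells as passage 2, whereas the study's text gives a later passage.

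The libraries held 14722848 to 18144640 counts. All 8 fibroblast markers were counted in every library. Markers of other cells were low by their summed CPM (counts scaled to the same library size, with TMM factors): 60.3 to 75.8 for macrophages (6 markers), 11.8 to 13.3 for endothelium (5 markers, with Tie1 at 0), 42.6 to 56.7 for epithelium (6 markers) and 152 to 210 for skeletal muscle (5 markers), compared with 35348 to 44249 for fibroblasts. The summed muscle level was 152 CPM in control and 173 CPM in PEDF-treated MEFs of experiment 1, and 190 and 210 CPM in experiment 2. The summed fibroblast level was 38166 and 35348 CPM in experiment 1 and 44249 and 38019 CPM in experiment 2, in the same order, and the collagen gene Col1a1 supplied the largest part of it (19417 and 17302 CPM, and 24006 and 19320 CPM). The list did not move as a whole, since 5 of the 8 fibroblast markers were lower with PEDF in both experiments and 2, Dcn and Thy1, were higher in both. With the experiment as a block (described with Gabarap), 3 of the 8 fibroblast markers fell (Col1a1, Col1a2 and Pdgfrb), 1 rose (Dcn) and 1 of the 5 muscle markers rose (Acta1) at an adjusted p under 0.05 in edgeR, a fit that called 3.75% of all genes. Without the block none of these markers was called. The part of these shifts in the results that follow was not tested, and in bulk RNA fewer cells of a type cannot be told apart from less RNA per cell.

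The members of the ATG8 family are made with a short tail that the protease ATG4 removes to expose a glycine, the residue that is joined to lipid. The last 30 coding bases of Map1lc3a, Gabarap, Gabarapl1 and Gabarapl2 (GENCODE M21 transcripts, GRCm38) are shown because they tell these family members apart. The last glycine codon is in capitals.
Map1lc3a: gtctacgcctcccaagaaaccttcGGCttc
Gabarap: gcctacagtgatgaaagcgtctatGGTctg
Gabarapl1: gcctacagtgatgaaagtgtctatGGAaaa
Gabarapl2: gcctacagcggagagaacacttttGGCttc
They lie on the plus strands at chr2:155277605-155277634, chr11:69994492-69994521, chr6:129541135-129541164 and chr8:111952373-111952402. Map1lc3a and Map1lc3b were 77.6% identical over 362 aligned coding bases, and Gabarap and Gabarapl1 74.6% over 351. The longest run of bases shared by any pair was 17, in Gabarap and Gabarapl1.

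Levels between genes were compared in TPM, the authors' values per exon length. Gabarap had the highest level, from 374 to 454 TPM over the libraries, followed by Sqstm1 (284 to 298), Map1lc3a (128 to 149) and Gabarapl1 (73.0 to 85.2). Atg5 (36.8 to 48.8), Map1lc3b (35.3 to 40.2) and Gabarapl2 (30.1 to 36.6) came next, and the ranges of neighbours in this order overlapped. Becn1 (24.99 to 28.8), Ulk1 (17.7 to 20.7) and Atg7 (7.30 to 9.74) were the lowest, with no overlap. The order depends on the lengths used. All exons of Map1lc3b sum to 7517 bp, but the coding transcript used here has 2532 bases, and on that length its mean level would be 114 instead of 38.5 TPM. On such lengths Gabarapl1 would go from 80.5 to 301, above Map1lc3a (149), and Becn1 (43.8) would pass Atg5 (41.6). Atg7 would go from 8.65 to 23.7, close to Ulk1 (24.2), while Gabarap (578) and Sqstm1 (479) would stay the highest. The transcript used for Gabarapl1 has 539 bases, compared with 2013 bp of exons, and was not chosen by expression, so the 301 may be too high. Within the ATG8 family, Gabarap contributed 58.4% to 59.7% of the summed TPM in every library and Map1lc3a 19.35% to 20.02%, so the make-up of the family differed little between control and PEDF-treated MEFs. On the coding transcript lengths Gabarap would contribute 47.9% to 49.2% and Map1lc3a 12.4% to 12.8%, and Gabarapl1 24.9% to 25.7% instead of 11.1% to 11.5%. All these shares depend on the 539-base transcript of Gabarapl1 and carry the same limit. The summed TPM itself was 726 in control and 764 in PEDF-treated MEFs of experiment 1, and 641 and 730 in experiment 2. The control library of experiment 2 was the low one, and the PEDF library of experiment 2 was close to the control library of experiment 1.

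**Figure D1:**
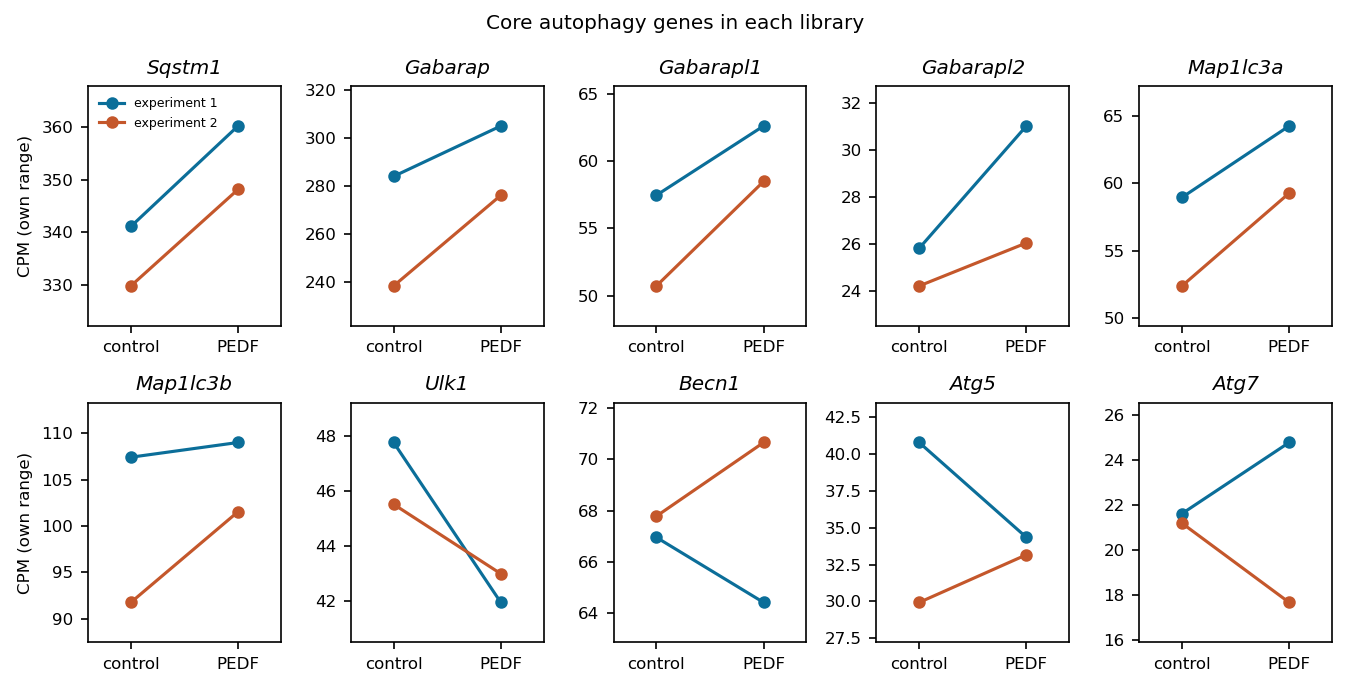
CPM (vertical axis, a separate range in each panel that does not start at 0) of the 10 core autophagy genes in control and PEDF-treated MEFs. Each point is 1 library and each line joins the libraries of 1 experiment. In CPM, the lines of Sqstm1 and the 5 ATG8 family genes go up in both experiments, that of Ulk1 goes down in both, and those of Becn1, Atg5 and Atg7 go in opposite directions in the 2 experiments.

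To examine whether PEDF changed these transcripts, PEDF-treated MEFs were compared with control MEFs by edgeR's quasi-likelihood test over all genes. In this test no core autophagy gene had an adjusted p under 0.05, or an unadjusted p under 0.05, whereas 0.00516% of all genes had the former and 6.88% the latter. DESeq2 also gave none of the 10 genes such a p, adjusted or not, compared with 0.0206% and 2.14% of all genes. All 5 ATG8 family genes had more CPM with PEDF in both experiments, by 1.48% to 20.1% in experiment 1 and by 7.53% to 15.9% in experiment 2, except that by the ratio of TPM values Map1lc3b was slightly lower in experiment 1 (log2 ratio -0.018). Sqstm1 was higher in both as well, so 6 of the 10 genes were higher in both experiments, compared with 30.1% of all genes. Ulk1 was the 1 gene that was lower in both, compared with 28.8%. The median log2 fold change of the 10 genes was 0.08, and that of all genes tested was 0.001. Without single libraries this median lay between 0.02 (without control replicate 2) and 0.18 (without control replicate 1), and it was 0.17 without PEDF replicate 2 and 0.06 without PEDF replicate 1.

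The GABARAP subfamily acts mainly in the later growth and fusion of autophagosomes. Gabarap (chr11:69991143-69994951, plus strand) had 284 CPM in control and 305 CPM in PEDF-treated MEFs of experiment 1, and 238 and 276 CPM in experiment 2. The groups overlapped, because the control library of experiment 1 was above the PEDF library of experiment 2, but in each experiment PEDF was the higher one. Its log2 fold change was 0.15 (standard error 0.09, edgeR adjusted p = 0.752), which became 0.03 without control replicate 2, 0.08 without PEDF replicate 1, 0.23 without PEDF replicate 2 and 0.29 without control replicate 1. A block for the experiment sets the libraries of 1 preparation against each other. In that fit Gabarap rose with PEDF by 0.16 (standard error 0.05, edgeR adjusted p = 0.0253), equal to 11.6%. No other core gene had an adjusted p under 0.05 with the block, by which 1.67% of all genes rose and 3.75% had such a p in either direction. DESeq2 with the block gave the same log2 fold change, 0.16, and did not make the call (adjusted p = 0.203). It called 0.604% of all genes, but gave an adjusted p to only 1345 genes, 8.70% of which were called, and among the core genes to Gabarap and Sqstm1. The call was also not made in edgeR after a correction of every library for its trends with gene length and GC content (log2 fold change 0.08, adjusted p = 0.414). Before that correction, 3 core genes had an unadjusted p under 0.05 in edgeR with the block: Gabarap, Gabarapl1 and Map1lc3a, all higher. Of the 19384 genes tested, 1392 were higher and 1430 lower at that threshold.

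Gabarapl1 (chr6:129533160-129542346, plus strand) had 57.5 and 50.7 CPM in the control libraries (experiment 1, then experiment 2, as in all pairs of values that follow) and 62.6 and 58.5 CPM in the PEDF libraries. Gabarapl2 (chr8:111940703-111953612, plus strand) had 25.8 and 24.2 CPM in control and 31.0 and 26.0 CPM in PEDF libraries. In both genes the PEDF libraries were above both control libraries, as they were in 18.9% of all genes. The log2 fold changes were 0.16 (standard error 0.09) for Gabarapl1 and 0.19 (standard error 0.11) for Gabarapl2, and the adjusted p-values in edgeR were 0.746 and 0.763. With the block they were 0.186 and 0.368, and the 95% intervals were 0.03 to 0.30 and -0.01 to 0.37. With no block and each library left out in turn, Gabarapl1 had log2 fold changes from 0.07 (without control replicate 2) to 0.25 (without control replicate 1), and Gabarapl2 from 0.06 (without PEDF replicate 1) to 0.31 (without PEDF replicate 2). An exon overlap limits Gabarapl1, since 28.3% of its exon length lies opposite the noncoding gene 1700101I11Rik, which had 1173 counts in all. The study's sources do not state whether the counting used strand. If it did not, reads of the 2 genes cannot be told apart there.

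The LC3 subfamily includes the protein most often used to mark autophagosomes, LC3B, encoded by Map1lc3b. Map1lc3a (chr2:155276297-155278073, plus strand) had 59.0 and 52.4 CPM in control and 64.3 and 59.3 CPM in PEDF libraries. Its groups did not overlap, by a margin smaller than the spread between the control libraries, and its log2 fold change was 0.15 (standard error 0.09, edgeR adjusted p = 0.758), or 0.15 with an adjusted p of 0.238 with the block. It was 0.07 without control replicate 2, 0.09 without PEDF replicate 1 and 0.24 without control replicate 1. Map1lc3b (chr8:121590361-121598760, plus strand) had 107 and 91.8 CPM in control and 109 and 102 CPM in PEDF libraries. The higher control library lay between the PEDF libraries, and the difference in experiment 1 was within counting error. The log2 fold change of Map1lc3b was 0.08 (standard error 0.08, edgeR adjusted p = 0.874), and its sign turned without control replicate 2 (-0.03).

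The count of Map1lc3b is also uncertain because of its copies. Of the family, Map1lc3b and Gabarapl2 had processed pseudogenes with at least 90% identity over at least 100 coding bases, 5 and 6 in number. Of these 11 pseudogenes, 10 had 0 to 4 counts in all. Gm6055 (chr14:48079375-48079752, minus strand) had 787 counts, or 10.5% of the counts of Map1lc3b and Gm6055 together. Its 378 bases differ from the Map1lc3b transcript at 1 base, the substitution G206A (the base of Map1lc3b, its position counted from the first coding base, then the base of Gm6055). It is shown in capitals within 30 bases of both genes, since reads of the coding sequence that miss it may fit either place.
Map1lc3b: acGgcgcttgcagctcaatgctaaccaagc
Gm6055: acAgcgcttgcagctcaatgctaaccaagc
These stretches lie at chr8:121596596-121596625 on the plus strand and chr14:48079520-48079549 on the minus strand. Gm6055 had 170 and 182 counts in control and 212 and 223 counts in PEDF libraries (log2 fold change 0.27, standard error 0.15, edgeR adjusted p = 0.750). With the counts of both genes summed, a setting chosen after their values were seen, the log2 ratio of PEDF to control was 0.04 (95% counting interval -0.05 to 0.14) in experiment 1 and 0.16 (0.07 to 0.25) in experiment 2, close to the 0.02 and 0.15 of Map1lc3b alone. The summed ratio could hardly differ, because Map1lc3b holds most of the counts. Reads that fit both places are missing from the sum, since only uniquely mapped reads were counted.

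Sqstm1 (chr11:50199366-50210827, minus strand) encodes a cargo receptor that is itself degraded by autophagy and whose gene is a known target of the antioxidant factor NRF2. It had 341 CPM in control and 360 CPM in PEDF-treated MEFs of experiment 1, and 330 and 348 CPM in experiment 2. The PEDF libraries were above both control libraries, and the difference was nearly the same in both experiments, 5.60% and 5.56%. With 5034 to 6203 counts per library, the counting intervals of the log2 ratio were narrow and above 0 in both (0.02 to 0.13 and 0.03 to 0.13). Over the libraries the log2 fold change was 0.08 (standard error 0.07, edgeR adjusted p = 0.835), and with the block it was 0.08 (95% interval -0.01 to 0.17, adjusted p = 0.439). Leaving out each library in turn kept it between 0.05 and 0.10. Exons of Mrnip on the opposite strand cover 17.3% of its exon length, with 282 counts for Mrnip in all. For Nfe2l2, which encodes NRF2, the log2 fold change was 0.05 with a standard error of 0.08.

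**Figure D2:**
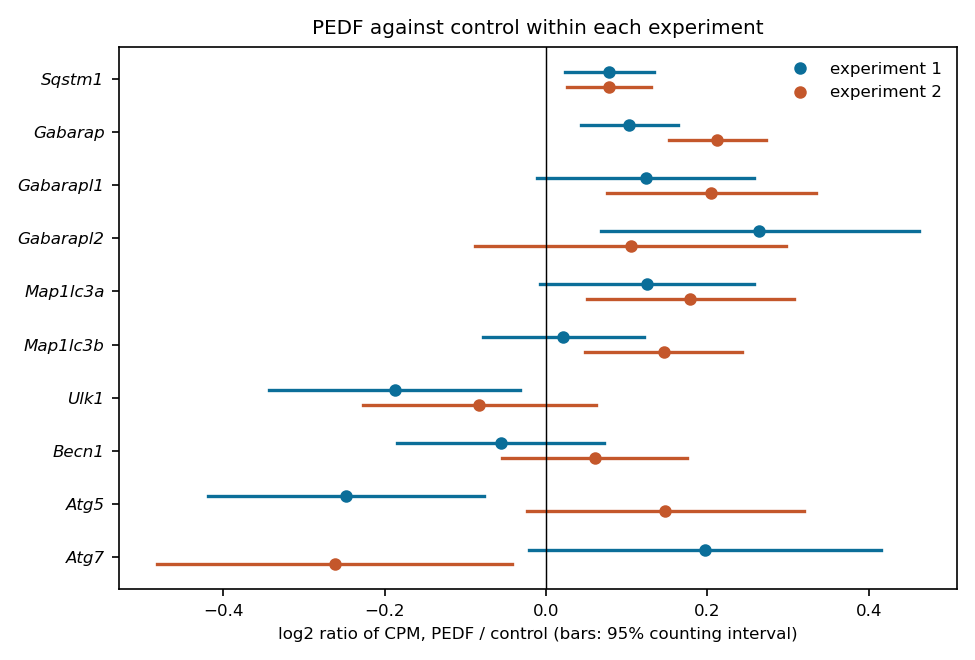
Log2 ratio of CPM, PEDF over control, of the core autophagy genes within experiment 1 and experiment 2 (1 library of each condition). Bars are exact 95% intervals that cover counting error only, and they lie wholly above 0 in both experiments for Sqstm1 and Gabarap.

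Of the genes that act at the start of the pathway, Ulk1 (chr5:110784488-110810097, minus strand) had 47.8 and 45.5 CPM in control and 41.9 and 43.0 CPM in PEDF libraries. Both PEDF libraries were below both control libraries, as in 18.4% of all genes. The log2 fold change was -0.13 (standard error 0.08, edgeR adjusted p = 0.771), and with the block the adjusted p was 0.429. The sign did not turn in any of 14 alternative settings, in which the log2 fold change ranged from -0.17 to -0.08, the smallest with the block and the length and GC correction (adjusted p = 0.779). Becn1 (chr11:101285952-101302286, minus strand) had 66.9 and 67.8 CPM in control and 64.4 and 70.7 CPM in PEDF libraries, with a log2 fold change of 0.00 (0.0042, 95% interval -0.17 to 0.18). The PEDF libraries stood on either side of the control libraries. Exons of Cntd1 on the opposite strand cover 43.9% of its exon length, so its counts carry the same uncertainty about strand as those of Gabarapl1.

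The conjugation genes did not keep a direction. Atg5 (chr10:44268358-44364291, plus strand) had 40.8 CPM in control and 34.4 in PEDF-treated MEFs of experiment 1, and 29.9 and 33.2 CPM in experiment 2. Atg7 (chr6:114643097-114860614, plus strand) had 21.6 and 24.8 CPM in experiment 1 and 21.2 and 17.7 CPM in experiment 2, the other way round. For Atg5 the control libraries lay on either side of the PEDF libraries, and for Atg7 the PEDF libraries lay on either side of the control libraries. The log2 fold changes were -0.06 (standard error 0.12) for Atg5 and -0.02 (standard error 0.14) for Atg7. Leaving out each library in turn gave values from -0.27 to 0.17 for Atg5 and from -0.28 to 0.21 for Atg7, with the sign turning in both.

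The preparations of MEFs were also compared, with experiment 2 against experiment 1 in place of the treatments. All 5 ATG8 family genes were lower in experiment 2, with log2 fold changes from -0.20 to -0.14, which are similar in size to those seen with PEDF. The log2 fold change of Gabarap was -0.20 (standard error 0.08) with an edgeR adjusted p of 0.600, and -0.20 (standard error 0.05) with an adjusted p of 0.00154 when the treatment was a term of the model. No core gene passed the test without that term and 1, Gabarap, passed it with the term, compared with 0.0567% and 4.49% of all genes. Atg5 was lower by 0.25 on the log2 scale in experiment 2 (-0.25, standard error 0.11, adjusted p = 0.609), the second largest difference after Atg7 (-0.26). Becn1 was the 1 core gene with a higher level in experiment 2 (0.08).

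**Figure D3:**
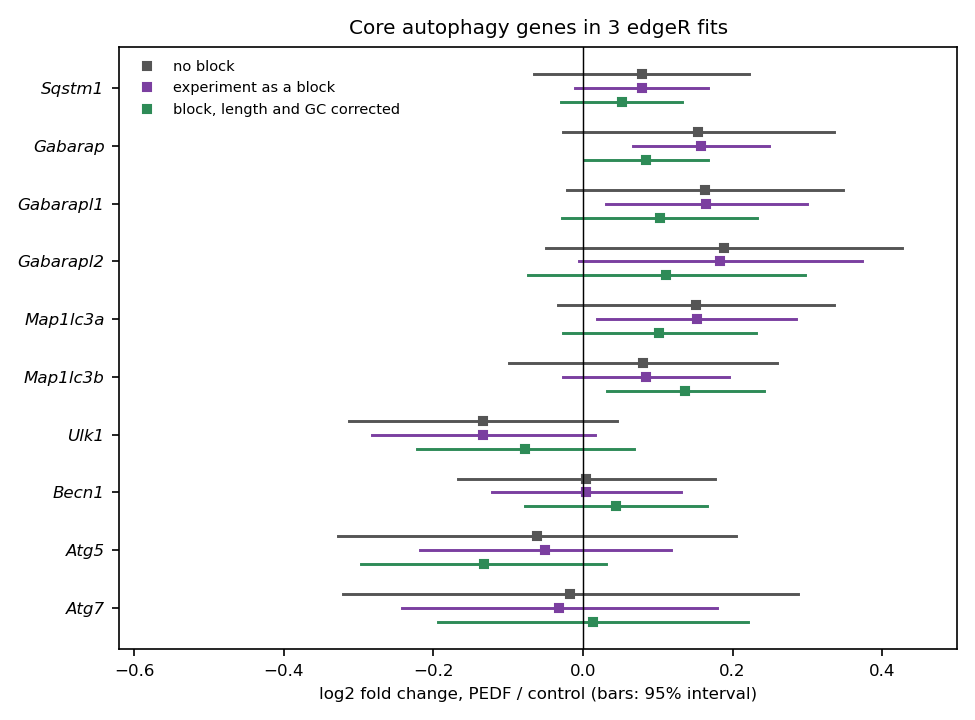
Log2 fold change of the core autophagy genes, PEDF over control, with 95% intervals in edgeR without a block, with the experiment as a block, and with the block after removal of length and GC trends. The intervals of Gabarap, Gabarapl1 and Map1lc3a clear 0 with the block, and those of Gabarap and Map1lc3b do after the correction. At an unadjusted p under 0.05 in edgeR, 1392 of 19384 genes were higher and 1430 lower with the block. After the correction these were 1143 and 1125 of 19363. The correction moves Gabarap, Gabarapl1, Gabarapl2 and Map1lc3a toward 0 and Map1lc3b away from it.

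The libraries differed in a way that followed gene length. Per doubling of exon length the log2 ratio of PEDF to control changed by -0.04 in experiment 1 and -0.06 in experiment 2, for the 10722 genes whose mean log2 CPM exceeded 3. The median exon length was 2013 bp for the 5 ATG8 family genes, compared with 3614 bp for all genes tested. With the block, the median log2 fold change of the ATG8 family genes was 0.16, and after the correction for length and GC content it was 0.10. All 5 were still higher with PEDF, and no core gene had an adjusted p under 0.05, compared with 2.22% of all genes. Gabarap went from 0.16 to 0.08, Map1lc3a from 0.15 to 0.10, and Gabarapl1 from 0.16 to 0.10. Map1lc3b went from 0.08 to 0.14 (adjusted p = 0.198), on the exon length of 7517 bp. Sqstm1 went from 0.08 to 0.05 (edgeR adjusted p = 0.711) and Becn1 from 0.005 to 0.04. Ulk1 went from -0.13 to -0.08, Atg5 from -0.05 to -0.13 (adjusted p = 0.580) and Gabarapl2 from 0.18 to 0.11, and the sign of Atg7 turned (0.01).

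**Figure D4:**
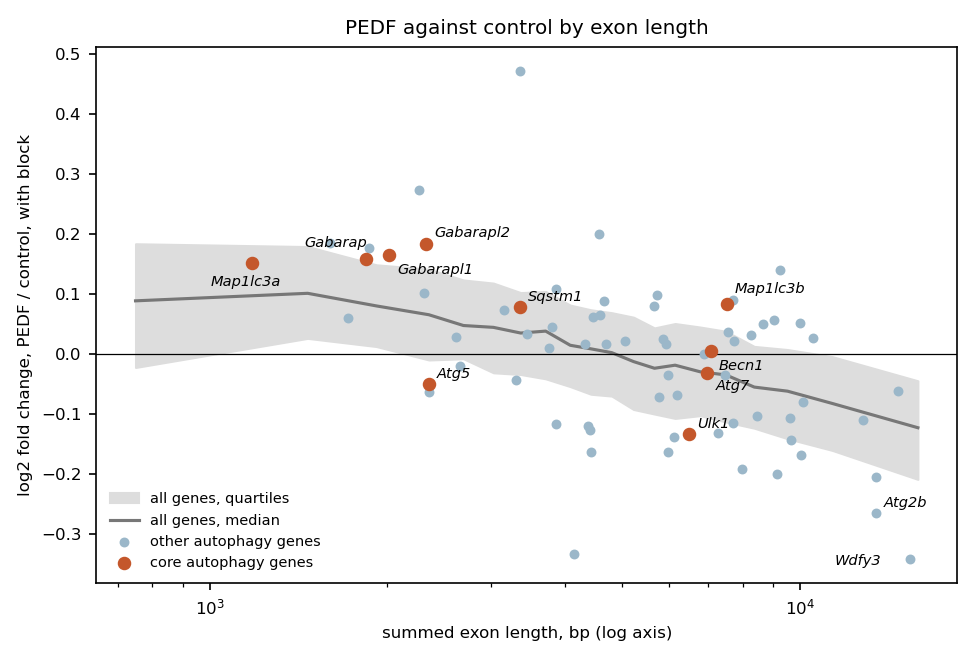
Log2 fold change with the block, PEDF over control, against summed exon length (log axis) for the core autophagy genes and the 61 other autophagy genes. The line and band are the median and quartiles of all genes whose mean log2 CPM exceeded 3, in 20 classes of length. The median goes from 0.09 in the shortest class to -0.12 in the longest. The offset added to CPM before the logarithm differed here, so these genes are not exactly the 10722 of the text.

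A further 61 autophagy genes put the core genes in context. All 61 were tested. By edgeR 0 of them passed at an adjusted p under 0.05 (0.00516% of all genes) and 5 at an unadjusted p under 0.05 (6.88% of all genes), and DESeq2 gave 2 of them an unadjusted p under 0.05 (2.14%). The log2 fold change was above 0 for 33 of them, with a median of 0.01, and for 9732 of the 19384 genes tested. Both experiments had a higher CPM with PEDF in 22 of them (36.1%, beside 30.1% of all genes) and a lower one in 23 (37.7%, beside 28.8%). The shares of all genes include genes with as few as 10 counts in total, whereas the lowest of the 61, Prkaa2, had 142. With the block, 2 genes fell and none rose (2.07% and 1.67% of all genes). Wdfy3, which encodes the large scaffold ALFY for the clearance of protein aggregates, had 103 and 116 CPM in control and 81.7 and 91.6 CPM in PEDF libraries. Both PEDF libraries were below both control libraries, with a log2 fold change of -0.34 (standard error 0.06, edgeR adjusted p = 6.84e-07 with the block and 0.530 without it), and -0.21 (adjusted p = 0.00738) with the block and the length and GC correction. Atg2b, which encodes a lipid transfer protein that feeds the growing membrane, had 57.6 and 54.8 CPM in control and 45.8 and 47.6 CPM in PEDF libraries. Its log2 fold change was -0.27 (standard error 0.07, edgeR adjusted p = 0.0110 with the block and 0.696 without it), and after the correction it was -0.16 (adjusted p = 0.284). In DESeq2 with the block neither gene was called. The unadjusted p was 0.000903 for Wdfy3 and 0.0505 for Atg2b, and DESeq2 gave them no adjusted p. Both genes are long, with exons of 15346 bp for Wdfy3 and 13456 bp for Atg2b.

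By role, a log2 fold change above 0 was found in edgeR without a block for 1 of 4 genes of the ULK complex, 4 of 7 of the PI3-kinase complexes, 3 of 9 of membrane supply, 5 of 9 of conjugation, 7 of 10 cargo receptors, 4 of 7 of fusion with lysosomes and 9 of 15 regulators. The gene with the highest TPM in each of these groups was Atg101 (log2 fold change 0.19), Nrbf2 (0.18), Vmp1 (-0.12), Atg3 (0.07), Bnip3l (0.11), Rab7 (0.03) and Nfe2l2 (0.05), and none of these 7 had an adjusted p under 0.05 in edgeR with or without the block. After the length and GC correction, Vmp1, a membrane protein needed for autophagosome formation, had a log2 fold change of -0.16 (adjusted p = 0.0281). Tfe3, a transcription factor for lysosomal and autophagy genes, had 0.22 (adjusted p = 0.0341) in that fit, and 0.14 with the block alone (adjusted p = 0.293).

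Likeness between genes was measured as the distance between their log2 CPM, each centred on its own mean over the 4 libraries, among the core and other autophagy genes. Each core gene was matched to its nearest gene, and of the pairs that hold a core gene the closest were Map1lc3a with Gabarapl1 (0.019), Sqstm1 with Calcoco1 (0.029), another autophagy receptor gene, and Becn1 with Atg4b (0.034), which encodes an ATG4 protease. Such distances describe 4 libraries with the same depth and length differences.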

How the data were processed

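MEF libraries of polyadenylated RNA (directional kit, paired reads) were analyzed. The authors trimmed reads with Trimmomatic 0.38, aligned them with HISAT2 2.1.0 and ran featureCounts 1.6.3 on uniquely mapped reads. They deposited the resulting raw counts. The submitters' processing notes name mm10, and 54784 of 55487 genes have GENCODE M21 coordinates. The strand setting is not given in the sources used here. The authors also deposited TPM values, and for 98.3% of genes with at least 10 counts in the control library of experiment 1 the length behind them equals the M21 exon length within 1%.

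Tests on the counts used edgeR 4.0.16 in R 4.3.3 (TMM factors, robust quasi-likelihood test, Benjamini-Hochberg adjustment over 19384 genes with at least 10 counts in total), without covariates. Standard errors came from the log2 fold change and F. The labels pair libraries by experiment, and the differences between experiments in control and PEDF libraries correlated (r = 0.423 over 10722 genes, which are not independent replicates). p-values measure the spread between these libraries, which edgeR estimates for each gene with support from all genes. With the block the estimate rests almost wholly on that support, so a small standard error need not be a gene's own. For Atg7 the experiments gave log2 ratios of 0.20 and -0.26, but its standard error with the block was 0.11. Counting intervals and floors cover counting error only, and 3 counts correspond to 0.168 to 0.203 CPM.

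Alternatives were RLE factors, DESeq2 1.42.0, other filters, the block with and without length and GC trends (natural splines, 5 degrees of freedom), limma 3.58.1 on log2(TPM + 1) or log2(TPM + 0.1), and each library left out. The methods were also run on simulated data that held no difference between the experiments, unlike these data, and no result here rests on those runs. Members and lists were chosen with earlier results of these data known. Named genes were the 10 core genes, other listed autophagy genes with an adjusted p under 0.05 with or without the block, the gene with the highest TPM per role, the 3 closest pairs and copies of members. Tfe3 and Vmp1 after correction, overlapping genes and marker genes were named after their values were seen. A coding end of the ATG8 family is not reported here.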

Additional observations from a re-analysis of the deposited data

Results flagged for a closer look

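For 3 core genes the direction of PEDF against control was opposite in the 2 experiments, and this difference was not tested, since each experiment has 1 library of each condition. The log2 ratio of CPM was -0.25 (95% counting interval -0.42 to -0.08) in experiment 1 and 0.15 (-0.02 to 0.32) in experiment 2 for Atg5. It was 0.20 (-0.02 to 0.42) and -0.26 (-0.48 to -0.04) for Atg7, and -0.056 (-0.18 to 0.07) and 0.060 (-0.05 to 0.18) for Becn1.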

How the results depend on the processing

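For PEDF against control, 1 gene passed at an adjusted p under 0.05 in edgeR, 4 in DESeq2, 106 with no filter on low counts, 0 in edgeR after filterByExpr (1187 at an unadjusted p under 0.05) and 0 in each limma fit (788 to 959). The replicate block gave 726 genes in edgeR, 430 with the length and GC correction and 117 in DESeq2, where 1345 genes had an adjusted p. With each library left out 2 to 205 genes passed (205 without control replicate 1, 24 without PEDF replicate 2, 2 without either of the others). The block made 1 call among the core genes, Gabarap (0.16), and changed no other call among them. It made 2 calls among the 61 other autophagy genes, Wdfy3 and Atg2b, compared with 3.75% of all genes. With the correction the calls were 3, Wdfy3, Vmp1 and Tfe3, compared with 2.22% of all genes. With no filter on low counts 1 of the other autophagy genes passed. With each library left out 0 core genes passed, and their median log2 fold change was 0.022 to 0.18. The sign of uncalled genes turned for Becn1 in limma (-0.021 with a pseudocount of 1, before and after a filter at a mean TPM of 1, and -0.022 with 0.1), and for Atg7 (0.013) and Rab7 (-0.031) with the block and the correction. With each library left out it turned for Becn1 (-0.064 to 0.068), Atg5 (-0.27 to 0.17), Atg7 (-0.28 to 0.21), Map1lc3b (-0.03 to 0.20), Nfe2l2 (-0.03 to 0.12), Bnip3l (-0.069 to 0.29), Atg3 (-0.015 to 0.16) and Rab7 (-0.029 to 0.083), and the value moved without a change of sign for Atg101 (0.03 to 0.35), Nrbf2 (0.10 to 0.26) and Vmp1 (-0.23 to -0.009). Between the experiments 11 genes passed in edgeR, 139 with no filter, 870 with the treatment as a term, 0 in each limma fit (1171 to 1404 at an unadjusted p under 0.05) and 21 to 480 with each library left out (480 without PEDF replicate 2, 129 without control replicate 1, 61 without control replicate 2 and 21 without PEDF replicate 1). Core genes among these numbered 1 with the treatment as a term and 0 to 1 with each library left out. The causes were not tested. With 1 library per condition and experiment, an effect that differs between preparations could not be tested. Where a library was left out, the lone library of its group was assumed to vary like the others.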
